A study of Homo sapiens with 3 samples.

Results

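The structural RNAs 7SK, RMRP, RPPH1 and RN7SL1, all made by RNA polymerase III, were followed through 3 sequencing libraries of the human lung cancer line 95D. They were picked by name, with their high control values already known, so those values are a description and carry no test. The deposited table lists them under 5 gene identifiers, because 7SK and RN7SK are a pair of names for 1 region, out of 5932 identifiers and 12282 distinct regions in the block that pairs the control with the glucose-deficient library. The symbol cell is blank for all 4 RNAs, and their Ensembl identifiers gave the names. The 3 libraries, 1 per condition, come from wild-type 95D cells held for 48 h in control conditions, without glucose or without glutamine, the deprivation media containing 10% dialyzed serum. Per the labels' protocols, each library holds RNA that a biotin-tagged synthetic copy of the long non-coding RNA DAMER captured from lysate, while the titles name RNA sequencing only. The protocols give the control the same capture steps as the deprived libraries. Since the titles do not name a capture, whether the control is one remains uncertain. Serum is recorded as 10% for the control too, and whether it was dialyzed there is not stated. 95D is 1 cell line, and every condition rests on a single library, so replicate error is unknown and p-values are left out.

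RNA polymerase III makes short, very abundant non-coding RNAs that work as the core of RNA-protein particles. 7SK binds HEXIM proteins and holds the kinase P-TEFb inactive, which restrains elongation by RNA polymerase II, with LARP7 and MEPCE as its stable protein partners. RPPH1 is the catalytic RNA of RNase P, which removes the 5′ leader of precursor transfer RNAs, and RMRP is the related RNA of RNase MRP, which cuts precursor ribosomal RNA and shares most of its proteins with RNase P. RN7SL1 encodes 7SL, the RNA of the signal recognition particle that brings ribosomes making secreted proteins to the endoplasmic reticulum, and the Alu repeats of the human genome descend from it.

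Up to 300 bases of 7SK, RMRP and RPPH1 are shown 5′ to 3′, as GENCODE release 29 gives them in GRCh38 with T for U. 7SK, 331 nt long, lies on chromosome 6 from 52995620 to 52995950 on the plus strand. Capitals mark GATC wherever it occurs. HEXIM recognises these letters in the paired 5′ hairpin, and a marked copy need not lie in that hairpin. A search for GATC, which reads the same on both strands, found it 3 times, first at base 13 and last ending at base 67. Bases 1 to 300 are shown.
7SK: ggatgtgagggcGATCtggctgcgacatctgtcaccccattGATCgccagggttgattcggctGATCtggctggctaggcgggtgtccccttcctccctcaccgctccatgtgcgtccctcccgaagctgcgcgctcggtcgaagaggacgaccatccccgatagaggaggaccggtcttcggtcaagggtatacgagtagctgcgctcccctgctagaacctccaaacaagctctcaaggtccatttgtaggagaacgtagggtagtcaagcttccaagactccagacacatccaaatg

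RMRP and RPPH1 are shown together because their particles share proteins. RMRP, of 264 nt, lies on chromosome 9 from 35657754 to 35658017 and RPPH1, of 333 nt, on chromosome 14 from 20343075 to 20343407, both on the minus strand. Capitals mark the longest run of letters that the pair has in common, 9 bases at positions 242 to 250 of RMRP and 146 to 154 of RPPH1, which is a description and not a shared site. RMRP is shown whole and RPPH1 from base 1 to 300. A global alignment of the pair gave 51.4% identical columns, against 52.9% for the unrelated pair 7SK and RN7SL1.
RMRP: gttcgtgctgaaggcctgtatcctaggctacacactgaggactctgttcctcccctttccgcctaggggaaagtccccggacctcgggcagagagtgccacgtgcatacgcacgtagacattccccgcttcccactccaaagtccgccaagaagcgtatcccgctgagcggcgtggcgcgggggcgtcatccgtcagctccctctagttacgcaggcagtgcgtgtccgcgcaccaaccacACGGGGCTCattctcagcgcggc
RPPH1: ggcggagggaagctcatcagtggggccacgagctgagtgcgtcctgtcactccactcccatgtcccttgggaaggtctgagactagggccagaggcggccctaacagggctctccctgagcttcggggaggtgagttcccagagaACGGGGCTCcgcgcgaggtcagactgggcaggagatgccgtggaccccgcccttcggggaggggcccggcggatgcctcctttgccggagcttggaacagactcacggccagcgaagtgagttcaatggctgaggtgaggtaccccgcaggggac

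RN7SL1 has close copies that reads may not tell apart. RN7SL1, of 299 nt, lies on chromosome 14 from 49586580 to 49586878 on the plus strand, RN7SL2 from 49862550 to 49862849 and RN7SL3 from 49853616 to 49853914 of the same chromosome on the minus strand. RN7SL1 was 98.3% identical to RN7SL2 (5 differing columns) and 97.7% identical to RN7SL3 (7 differing columns). Among annotated transcripts, RN7SL2 and RN7SL3 were the 2 other genes that matched RN7SL1 at 90% identity or more over 80% of its length, and both are listed. Shorter stretches of RN7SL1 matched transcripts of 8247 genes at an E-value of at most 1e-10, 1607 of them listed, so the RN7SL1 value is uncertain. 7SK had 5 such long matches in other genes, of which 0 are listed, and RMRP and RPPH1 had 0 each. The whole RN7SK model of 328 nt lies inside the 7SK model. RPPH1 lies inside the single exon of AL355075.4, a 638 nt gene annotated as antisense at 20343048 to 20343685 on the same strand, and both identifiers carry the same values, so fragments of AL355075.4 cannot be told from those of RPPH1. RN7SL1 lies in an intron of RPS29, a ribosomal protein gene on the opposite strand with 0 listed rows.

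**Figure D1:**
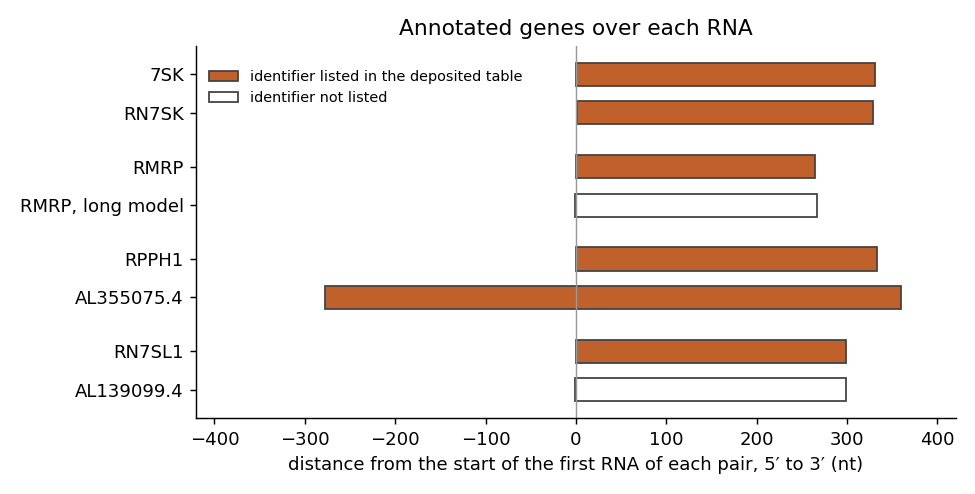
Annotated GENCODE genes over each of the 4 RNAs, plotted as distance in nt from the start of the first RNA of each pair. Filled bars are identifiers with a value in the deposited table and open bars those without one. 7SK and RN7SK cover nearly the same bases, AL355075.4 reaches past both ends of RPPH1, and the RPS29 intron around RN7SL1 is not drawn.

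Values are deposited as RPM, reads made relative to the library's total so that libraries of unlike depth compare. Their lowest steps show that they hold an added 0.5 fragment per region. From the size of the fixed steps between values, the control library held 3781862 fragments, the library without glucose 18775816 and the one without glutamine 18301607. ATF4, a transcription factor of the stress response, held 99.9% of the fragments of each deprived library. Only 0.0689% and 0.0790% of their fragments lay outside ATF4, its pseudogenes and RNF157, a gene that shares a region with 1 of them, together called the ATF4 family below. These totals and shares take the steps as exact, at 0.26442 RPM in the control, 0.05326 without glucose and 0.05464 without glutamine. If the steps were rounded, that error enters every value that uses all fragments outside the ATF4 family, and no interval covers it. Of the markers fixed for the labelled cell type, 1 of 6 epithelial genes (KRT8, 6.48 RPM in the control) and 0 of 4 lung genes were listed. The listed markers of other cell types had higher control values. They were mesenchymal VIM at 77.7 RPM (1 of 3 listed), neuronal NCAM1 at 16.8 RPM (1 of 2) and CSF1R of leukocytes at 10.3 RPM (1 of 3). Of the rest, 0 of 3 fibroblast, 0 of 2 endothelial and 0 of 2 erythroid markers were listed. The part of these markers in the results was not tested. Intervals are 95% intervals and cover counting error only. They treat each fragment as an independent count, so they are too narrow where fragments are PCR copies of the same molecule. Fewer cells with an RNA, less of it per cell and less of it captured cannot be told apart.

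The control library was rich in all 4 RNAs, and the deprived libraries held almost none. Together they made up 2.05% of the control library, 77417 fragments, and 9.31% of the control fragments of all listed regions outside the ATF4 family. 7SK stood at 14609 RPM in the control (55249 fragments), 0.0799 RPM without glucose (1 fragment) and 0.0273 RPM without glutamine (0 fragments). It ranked first among 12272 listed regions by control fragments. RPPH1 stood at 2473 RPM in the control (9353 fragments), 0.666 RPM in the glucose-deficient library (12 fragments) and 0.0273 RPM in the glutamine-deficient library (0 fragments). RMRP stood at 1870 RPM in the control (7071 fragments), 0.0799 RPM without glucose (1 fragment) and 0.0273 RPM without glutamine (0 fragments). RN7SL1 stood at 1519 RPM in the control (5744 fragments), 0.133 RPM without glucose (2 fragments) and 0.0273 RPM without glutamine (0 fragments). The value of 0.0273 RPM is the offset alone, and the limit that 0 fragments allow is 0.164 RPM in the glutamine-deficient library. In every member the control library was the high one, and the counting interval of either deprived library lay below that of the control, as in 99.9% of all tested genes in each comparison. RPPH1 was the only one of the 4 with more than 2 fragments in a deprived library.

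**Figure D2:**
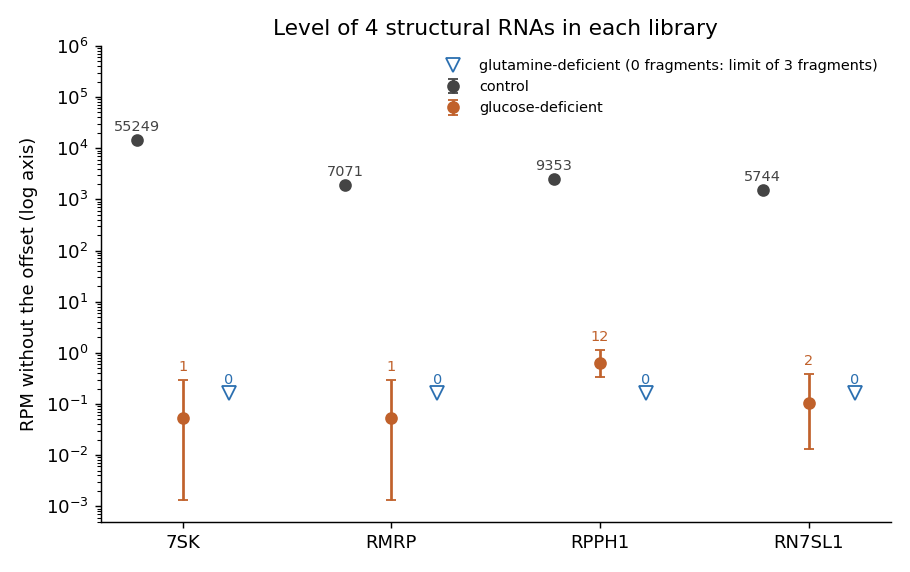
Level of the 4 RNAs in the 3 libraries, in RPM without the offset on a log axis, with the number of fragments beside each point. Bars are 95% Poisson intervals, and open triangles mark the limit of 3 fragments where 0 fragments were counted. Control values lie between 1519 and 14609 RPM, and RPPH1, with 12 fragments, is the highest of the 4 in the glucose-deficient library.

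The order of the 4 RNAs in the control was read per length of the annotated gene, since the deposited table gives regions without coordinates. On the scale of control RPM per kb, 7SK stood at 44136 (43769 to 44505), RPPH1 at 7427 (7277 to 7579), RMRP at 7083 (6918 to 7249) and RN7SL1 at 5080 (4949 to 5213). 7SK was thus 5.94 times the level of RPPH1 per nt (5.81 to 6.08). RPPH1 and RMRP, the RNAs of the paired ribonucleases, were close, with a ratio per nt of 1.05 (1.02 to 1.08). RMRP was 1.39 times the level of RN7SL1 (1.35 to 1.44). Each step in this order exceeded the counting error of independent fragments, while PCR copies and the spread between cultures are unknown. The place of RPPH1 rests on its own length: on the 638 nt of AL355075.4, which has the same region, the level would be 3877 RPM per kb, below RMRP and RN7SL1.

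The 4 RNAs also led the other structural RNAs that had a value. Of 23 RNAs fixed as products of RNA polymerase III, 7 had a value, the others of these being RN7SL2, RN7SL3 and RNY1, a Y RNA bound by the Ro autoantigen. Of 38 structural RNAs made by RNA polymerase II, 15 had a value. Per length, the highest of those 15 was SNORA73B, a small nucleolar RNA, at 997 control RPM per kb (928 to 1070), and RN7SL1 was 5.10 times higher (4.73 to 5.50). RN7SL2 stood at 828 RPM per kb (776 to 882) and RN7SL3 at 528 RPM per kb (486 to 571). RN7SL1 thus exceeded these near-identical copies 6.14-fold (5.73 to 6.58) and 9.64-fold (8.86 to 10.5), as far as the alignment could assign reads among them. RNY1 stood at 703 RPM per kb (625 to 786), between RN7SL2 and RN7SL3, with an interval that overlaps that of RN7SL2. The RN7SL2 region is shared with AL627171.2, a non-coding gene of 3151 nt over it, on whose length the level would be 78.8 RPM per kb. SNORA73A, at 849 RPM per kb (785 to 916), and RN7SL2 had overlapping counting intervals.

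**Figure D3:**
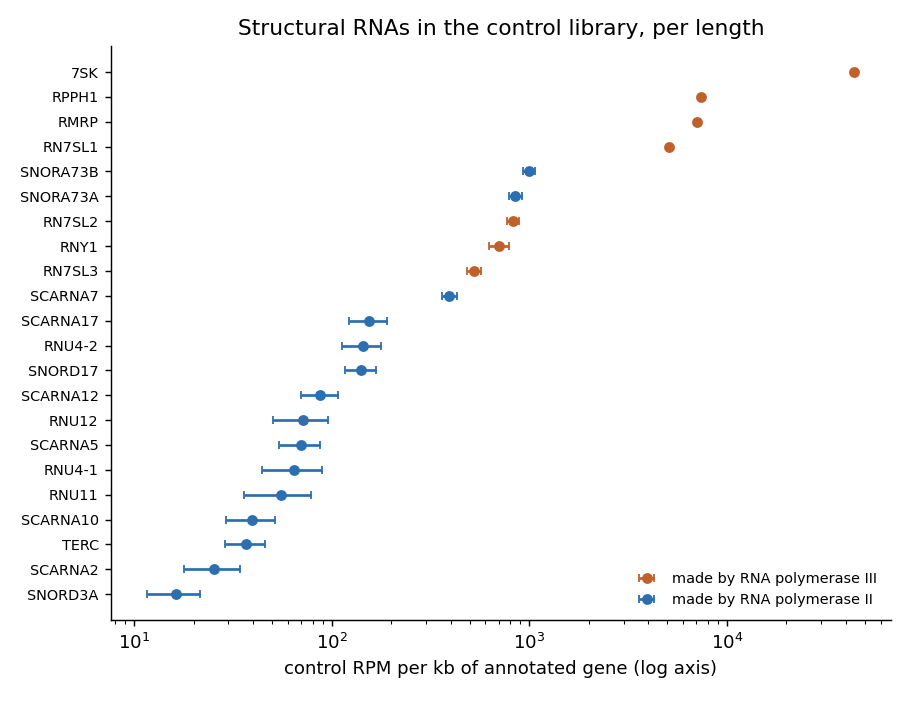
Control RPM per kb of annotated gene, on a log axis, for the 22 structural RNAs that had a value, with 95% Poisson intervals. Orange points are RNAs of RNA polymerase III and blue points RNAs of RNA polymerase II. 7SK, RPPH1, RMRP and RN7SL1 take the first 4 places, from 44136 down to 5080 RPM per kb.

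The first comparison asks what differed between the glucose-deficient and the control library. All 4 RNAs were at least 2-fold lower and 0 higher without glucose, which says nothing particular about them, because 99.9% of the 5931 tested genes were lower too and 0.118% higher. A gene was tested if its RPM reached 1 in the control or the deprived library, on the scale of log2(RPM + 1), where the added 1 shrinks the differences of low genes. The median log2 ratio of the 4 RNAs was −10.65, against −3.92 over all tested genes. With deprived values near 0, this gap mostly mirrors the high control levels of the 4 RNAs. By fragments per library total, RPPH1 was 3870-fold lower (2214 to 7492). RN7SL1 was 14259-fold lower on 2 fragments, with an interval from 3945 to 117766. RMRP and 7SK each rested on 1 fragment, with folds of 35105 (6299 to 1.39e+06) and 274295 (49228 to 1.08e+07). Folds on so few fragments do not rank the RNAs.

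Setting each RNA against its own control fragments takes the control level out. In the glucose-deficient library RPPH1 kept 1.28 fragments per 1000 control fragments (0.663 to 2.24), RN7SL1 0.348 (0.0422 to 1.26), RMRP 0.141 (0.00358 to 0.788) and 7SK 0.0181 (0.000458 to 0.101). Pooled, the other listed regions outside the ATF4 family with at least 5 control fragments kept 1.16 per 1000 (1.08 to 1.24). This pool leaves out 6 listed regions, with 4 control fragments together and 238 fragments without glucose. RPPH1 therefore kept a share that its interval does not separate from that of the listed regions. 7SK and RMRP kept less, with whole intervals below 1.16, and RN7SL1 had an interval that includes this value. Of all 12272 listed regions outside the ATF4 family, the 4 RNAs included, 5 (0.0407%) had a whole interval below the pooled value, and 7SK and RMRP are 2 of these 5. Only 19 had enough control fragments, 3450.5 or more, to lie below it at 0 fragments, and the same 5 are 26.3% of these 19. With the library totals taken as exact, all fragments outside the ATF4 family, listed or not, kept 3.42 per 1000 (3.36 to 3.48). The intervals of all 4 RNAs, RPPH1 included, lay below that value. So did the interval of the pooled listed regions (1.08 to 1.24), so lying below it is not particular to these RNAs.

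Between the RNAs, the kept share of RPPH1 was 70.9 times that of 7SK, with a counting interval from 10.5 to 3030 that treats the control counts as exact. It was 9.07 times that of RMRP (1.34 to 388) and 3.68 times that of RN7SL1 (0.820 to 33.9), the last an interval that includes 1. RN7SL1 kept 19.2 times the share of 7SK (1.00 to 1135). The make-up of the 4 RNAs differed accordingly. 7SK held 71.4% of their control fragments (71.0 to 71.7, exact binomial interval) and 1 of their 16 glucose-deficient fragments, 6.25% (0.158 to 30.2). RPPH1 held 12.1% in the control (11.9 to 12.3) and 75.0% in the glucose-deficient library (47.6 to 92.7). RNase P RNA was thus the main remaining RNA of the 4, on 12 fragments that could also come from AL355075.4. With the library totals taken as exact, fragments of regions that are not listed kept 4.00 per 1000 (3.93 to 4.08), above the listed regions. The sources used here do not state how the authors chose which regions to list.

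**Figure D4:**
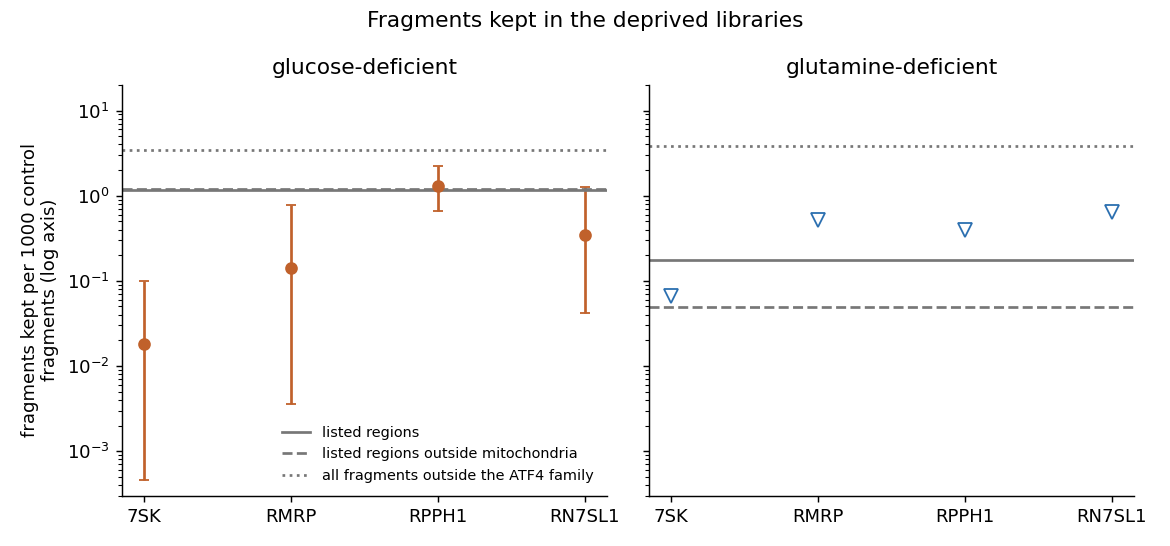
Fragments kept per 1000 control fragments, on a log axis, for the 4 RNAs in each deprived library. Points have 95% intervals, open triangles are upper ends of intervals at 0 fragments, and the horizontal lines are pooled values of listed regions, of listed regions outside mitochondria and of all fragments outside the ATF4 family. In the glucose-deficient library RPPH1 (1.28) is the only point of the 4 above the line of the listed regions (1.16), and the intervals of RPPH1 and RN7SL1 include the line while those of 7SK and RMRP lie below it.

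**Figure D5:**
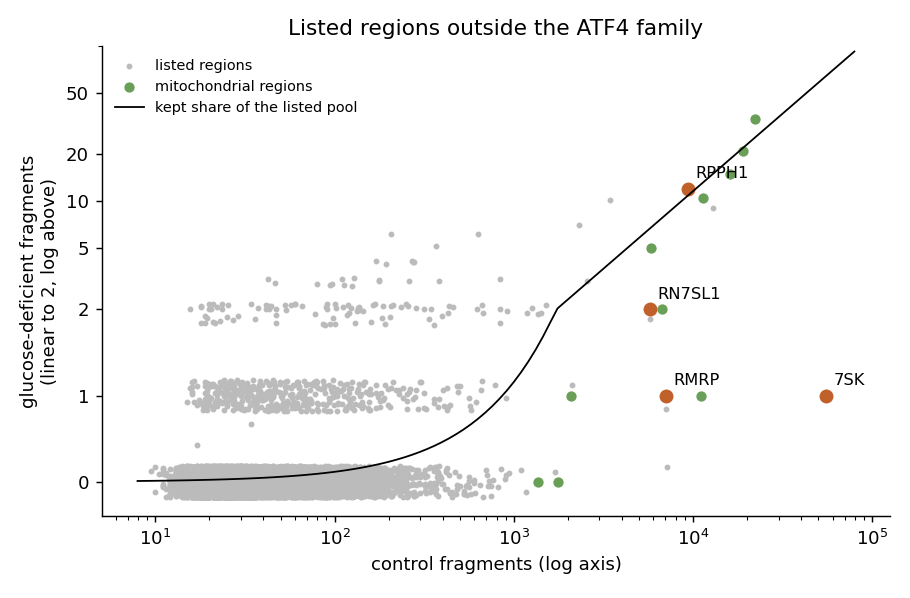
Glucose-deficient fragments (linear up to 2, log above, with small random shifts of the grey points) against control fragments (log axis) for listed regions outside the ATF4 family, with the kept share of the listed pool as a line. At the pooled share 7SK would have 64.0 fragments and has 1, while RPPH1 would have 10.8 and has 12.

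The second comparison asks the same of the glutamine-deficient and the control library. All 4 RNAs had 0 fragments without glutamine, so the data give bounds and no level. They were at least 2-fold lower, as were 99.9% of the 5928 tested genes, while 0 RNAs and 0.0675% of genes were higher, and the median log2(RPM + 1) ratio was −11.03 against −3.93 over all tested genes. Set to 3 fragments, the limit per library, the fold by which 7SK was lower was at least 89122, against at least 15087 for RPPH1, 11406 for RMRP and 9266 for RN7SL1. The bounds and the median of the 4 RNAs only mirror the control levels. The lower ends of the 95% intervals, which allow 3.69 fragments where 0 were counted, were 72477, 12268, 9274 and 7533 in the same order. Per 1000 control fragments, 0 fragments allow up to 0.0668 for 7SK, 0.394 for RPPH1, 0.522 for RMRP and 0.642 for RN7SL1. Listed regions kept 0.174 per 1000 (0.146 to 0.207), so the interval of 7SK lay below the pool. It was the only such region, 0.00815% of 12268 and 50% of the 2 with enough control fragments. The intervals of the other 3 RNAs included the pooled value. Without mitochondrial regions the pool kept 0.0487 (0.0333 to 0.0688), and the interval of 7SK then included the pooled value. Among the 11 other regions with at least the control fragments of RN7SL1, mostly mitochondrial, the pool kept 0.755 (0.613 to 0.919), and the intervals of all 4 RNAs lay below it. This is not particular to them. Within that pool, a region of the non-coding RNA MALAT1 (0 to 0.284) and a region with no gene named (0 to 0.517) lay below it too. None of the mitochondrial regions did. The call against listed regions without glutamine thus depends on the regions pooled.

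The third comparison is between the libraries without glucose and without glutamine. Of the 4 RNAs, 0 reached 1 RPM in either library, so 0 were tested, while 18.8% of the 16 tested genes were higher and 0% lower without glucose. Fragment counts were 12 against 0 for RPPH1, 2 against 0 for RN7SL1, and 1 against 0 for RMRP and for 7SK. The library without glucose held all 16 fragments of these RNAs in the deprived pair. Other listed regions outside the ATF4 family differed the same way, with 874.5 fragments without glucose and 131.5 without glutamine. At those pooled shares RPPH1 would have 10.8 and 1.63 fragments, so a difference in this direction is not particular to it. For RPPH1 the interval of the ratio began at 2.71 on library totals and at 3.10 on fragments outside the ATF4 family. For the other 3 RNAs it reached down to 0.183 or less, and no difference was detectable at this depth. Both comparisons with the control share that library, so its values enter each of them.

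Genes of the proteins that work with these RNAs had control values too, and 0 fragments in both deprived libraries. Of all tested genes, 99.9% were lower without glucose and 5393 of 5931 had 0 fragments there, so the counts below are not particular to these lists. Of the 7 proteins of the 7SK particle and P-TEFb, 4 were tested and all 4 were lower without glucose, with 0 fragments each. They were the cyclins CCNT1 (21.8 RPM in the control) and CCNT2 (15.2 RPM), the 7SK binding protein LARP7 (16.4 RPM) and HEXIM1 (8.33 RPM), the inhibitor that needs 7SK to hold P-TEFb. Of 11 proteins of RNase P and RNase MRP, 2 were tested and lower, POP7 (13.6 RPM) and RPP25 (5.16 RPM), which bind their RNA as a pair. All 8 genes of the signal recognition particle and its receptor were tested and lower. Among these were SRP72 at 56.6 control RPM, SRP19 at 45.6 RPM, SRPRB, a receptor subunit, at 33.4 RPM, and SRP68, the partner of SRP72, at 33.2 RPM. Of 31 genes of the RNA polymerase III machinery, 14 were tested and lower, led by BDP1, a subunit of initiation factor TFIIIB, at 91.2 RPM. Its companions were the TFIIIC subunits GTF3C4 (36.4 RPM) and GTF3C1 (35.3 RPM) and the catalytic subunit POLR3A (21.7 RPM).

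In all these lists 0 genes were higher, and the same numbers were tested and lower without glutamine, where 99.9% of 5928 genes were lower, 0.0675% higher and 5882 at 0 fragments. Median log2 ratios without glucose were −4.01, −3.19, −4.97 and −3.40 for the 4 protein lists in that order, against −3.92 over all tested genes. The 7 listed RNAs of RNA polymerase III had a median of −10.39 without glucose and −10.53 without glutamine. The 15 structural RNAs of RNA polymerase II had −4.35 in both comparisons. With deprived values at or near 0 fragments, these medians mostly mirror control levels and do not rank the lists. Of these 15, SNORA73A (661 control fragments) had 1 fragment without glucose, and SNORA73B (769) and SCARNA7 (492), which guides changes to spliceosomal RNA, had 0. RN7SL2, with 939 control fragments, RN7SL3, with 596, and RNY1, with 300, had 0 fragments in both deprived libraries. With fewer than 3450.5 control fragments each, 0 fragments cannot set these RNAs below the listed regions.

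Likeness to each RNA was measured over 3 libraries as the distance between log2(RPM + 1) values among 5928 genes. Nearest to RMRP was RN7SL1, at a distance of 0.31, and the reverse held too. The second nearest to RMRP was the shared region of RPPH1 and AL355075.4 (0.74), and the second nearest to RN7SL1 was MT-RNR2, the large mitochondrial ribosomal RNA (0.88). RPPH1 had RMRP (0.74) and RN7SL1 (0.90) nearest. 7SK stood farther from any gene, with MT-CO1, a mitochondrial mRNA of the respiratory chain, at 1.52 and MALAT1, a nuclear long non-coding RNA which has the same values as TALAM1, at 1.81. MT-CO1 stood at 7736 RPM in the control, 0.799 RPM without glucose and 1.01 RPM without glutamine. MALAT1 stood at 5570, 1.38 and 0.164 RPM in the same order, the last being the offset of its regions at 0 fragments. The control values alone were 0.92 apart for 7SK and MT-CO1 and 0.40 apart for RPPH1 and RMRP on the log2 scale. They were 0.300 apart for RMRP and RN7SL1 and 0.875 apart for RN7SL1 and MT-RNR2, nearly the whole distance in these pairs. Likeness in these last pairs is thus mostly likeness of control level.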

How the data were processed

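HISAT2 2.0.5 and hg38 are named in the submitters' processing notes. Region caller, annotation and strand setting remain not given in the sources used here. Values deposited by the authors are RPM per the file headers. Their lowest value is 0.5 of a step, read here as an offset of 0.5 fragment per region. Fragments were recovered by taking off this offset and rounding to 0.5. Below 1000 RPM no value lay more than 0.00325 fragment from such a step, and values were whole fragments in 63.3% (control), 99.96% (without glucose) and 99.97% (without glutamine) of rows. Rows of overlapping genes with equal values within 10 rows were taken as 1 region. The glutamine column was matched by title, since the sample's description names the glucose column. The deposited values of the 4 RNAs are equal in each library's own file.

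Coordinates, lengths and sequences are of GENCODE 29, and the sequence of RN7SL1 and its copies is not reported here. Ratio intervals are exact conditional binomial, and levels have exact Poisson intervals. Members and gene lists were chosen with earlier results of these data known. Named are the members, list genes from 100 control RPM upward plus up to 4 more per list, the 2 nearest genes of each RNA, and ATF4. AL355075.4, TALAM1, AL627171.2, RPS29 and KRT8 are named for a shared locus or as a marker. The design foresaw no test, since each condition has 1 library. The steps were tested on simulated data for the glucose comparison (5928 genes), where 100% of the genes given a 4-fold change were called. The simulated deprived library kept the control profile, while in the real one ATF4 held 99.9% of the fragments. The simulation therefore checks the calculation and not the calls made here. Alternatives used edgeR 4.0.16 and DESeq2 1.42.0 for scaling only. Other tools were blastn 2.17.0, Biopython 1.88, R 4.3.3, scipy 1.17.1, matplotlib 3.10.9, numpy 2.4.6, Python 3.11.15 and pandas 2.3.3.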

Additional observations from a re-analysis of the deposited data

How the results depend on the processing

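Against the control, 4 of 4 RNAs were at least 2-fold lower under each alternative run, except that median-of-ratios scaling left 3 of 4 without glucose, where RPPH1 had a log2 ratio of −0.80. That scaling rests on 23 genes with fragments in all 3 libraries, and 23.5% of the genes tested under it were lower. The share of tested genes lower was 68.8% with TMM scaling, 90.8% with a pseudocount of 5 RPM and 92.1% with either set of abundant genes out of the totals without glucose. Without glutamine it was from 90.8% to 99.9% over all settings. The log2 ratio of 7SK ranged from −16.31 to −5.69 without glucose and from −16.81 to −6.40 without glutamine. Between the deprived libraries the number of RNAs at least 2-fold higher without glucose was 0 as reported, 1 with a pseudocount of 0.1 RPM (25% of tested genes higher), 1 with TMM scaling (72.7%), 2 with median-of-ratios scaling (89.2%), 4 with totals without ATF4 and its pseudogenes and 4 with totals without mitochondrial and the 10 most abundant genes. Under the last 2 settings 92.5% of tested genes were higher too. Listed regions without glutamine kept 0.174 fragments per 1000 as reported, 0.0487 without mitochondrial regions and 0.755 among regions with at least the control fragments of RN7SL1. Over the 6 gene lists, 50 of 50 tested genes were lower in both comparisons with the control, and 39 of 39 among genes at 10 RPM or more. Of all tested genes, 99.9% were lower in both. The length of AL355075.4 for RPPH1 and that of AL627171.2 for RN7SL2 were chosen after seeing the data. No paired analysis was possible because each condition has 1 library. A count of 0 fragments limits what can be said without glutamine.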
